A study of Mus musculus with 18 samples.

Results

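Hrk and 9 further genes of the BCL2 family (Bbc3, Bcl2l11, Bid, Bcl2, Bcl2l1, Bcl2l2, Mcl1, Bax and Bak1) were followed in the cerebellum of FVB mice, 10 genes of the 22783 in the deposited table. Hrk was chosen by its FPKM in these libraries, which stood higher in one genotype than in the other, so its genotype differences are given as a description with no test. The other 9 were chosen as members of the same family. All 10 members passed the filter on low values, which 13487 genes passed, so every member was measured and none was dropped. One genotype is labelled Cck-/-, that is, without a working copy of Cck, which encodes the neuropeptide cholecystokinin. The other, ATXN1[30Q]D776/Cck-/-, carries the same Cck label and in addition an ATXN1 transgene, whose product, ataxin-1, is the protein affected in spinocerebellar ataxia type 1. The label gives a glutamine tract of 30 residues and an aspartate where ataxin-1 otherwise has a serine that can be phosphorylated. In the published line of this name the transgene is driven by the regulatory region of Pcp2, which is active in Purkinje cells. No group with intact Cck and none without both alterations was analysed here. Each genotype difference is thus between libraries with the same Cck label, with and without the transgene. Each genotype has 3 libraries at 5 weeks, 3 at 12 weeks and 3 at 28 weeks of age, 18 in all, and libraries with the transgene are called transgenic below. The labels do not say whether the 3 libraries of a group come from 3 animals, so p-values measure the spread between libraries, which may be technical in part.

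The BCL2 family sets whether a cell keeps the outer membrane of its mitochondria intact. The survival proteins BCL2, BCL-XL (from Bcl2l1), BCL-W (from Bcl2l2) and MCL1 hold the effectors BAX and BAK (from Bak1) in check, and the effectors, once free, open pores through which cytochrome c leaves and starts the caspase cascade. The BH3-only proteins bind the survival proteins or the effectors and so promote death. They include HRK (harakiri, also called DP5), BIM (from Bcl2l11), PUMA (from Bbc3) and BID. HRK is known mainly from neurons, where it binds BCL-XL and BCL2 and where its transcription follows JNK and c-Jun signalling after loss of trophic support. PUMA is a classical target of p53.

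The values are FPKM (fragments scaled by transcript length and by the mapped fragments of the library), so levels can be set side by side between genes. Library sums ran from 389248 to 441509 FPKM, with 12767 to 13323 genes at 1 FPKM or more. The files hold no read counts, so depth is unknown and counting intervals could not be formed. Cck was above 0 FPKM in all groups despite its label, and in week 5 libraries it stood at 98.1 ± 15.7 FPKM with the transgene against 20.8 ± 4.51 without (mean ± SD, n = 3). What goes with the transgene at week 5 and what goes with this Cck level cannot be told apart. Averages over ages and changes from week 5 include these libraries and share this limit. Mouse Atxn1 gives no check of the transgene, because reads of the human sequence were not analysed here. Defining markers of the cerebellum, such as Pcp2 and Car8 of Purkinje cells and Cbln1 of granule neurons, were present in all libraries. Choroid plexus genes were low in 3 libraries (transgenic week 5 replicates 1 and 2 and transgenic week 28 replicate 3). Xist and the Y-linked Ddx3y were both above 2% of their highest level over all libraries in 3 libraries (transgenic week 5 replicate 1, week 12 replicate 2 and week 28 replicate 1), called the libraries with both Xist and Ddx3y below. Results that rest on these libraries are given with and without them. Leaving out the first set leaves 1 transgenic library of week 5, which is then assumed to vary like the other groups, and 2 of week 28. Leaving out the second leaves 2 transgenic libraries at each age. Every group held libraries high in Xist and libraries high in Ddx3y, so both sexes were present. At weeks 5 and 12 Ddx3y was high in Cck-/- replicates 2 and 3. In transgenic libraries it was high in replicate 2 of week 5 and replicate 3 of week 12. At week 28 it was high in replicate 1 of each genotype. Sex was not in the fit, and its part in the genotype and age differences was not tested.

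Hrk was the member with the widest range. It lies on the plus strand at chr5:118169764-118189478 (RefSeq, GRCm38.p6). In Cck-/- libraries it stood at 2.27, 2.58 and 2.43 FPKM at week 5, at 2.28, 2.81 and 2.10 at week 12 and at 2.62, 2.06 and 2.30 at week 28. In transgenic libraries it stood at 4.38, 8.07 and 5.70 FPKM at week 5, at 7.62, 5.54 and 4.32 at week 12 and at 13.4, 10.5 and 9.66 at week 28. Every transgenic library lay above every Cck-/- library, and the 3 transgenic libraries of week 28 lay above all other 15. The order of the group means was transgenic week 28 (11.2 ± 1.96 FPKM, SD, n = 3), transgenic week 5 (6.05 ± 1.87), transgenic week 12 (5.83 ± 1.67), then Cck-/- at week 5 (2.43 ± 0.152), week 12 (2.40 ± 0.368) and week 28 (2.33 ± 0.280). Transgenic weeks 5 and 12 overlapped, as did the 3 Cck-/- groups, so neighbours within these 2 sets did not differ beyond their spread.

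**Figure D1:**
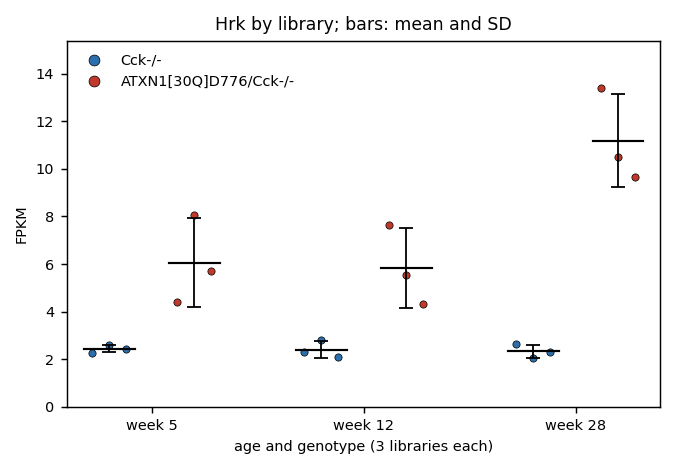
Hrk in FPKM (vertical axis) in each of the 18 libraries by age and genotype, with horizontal bars for the group mean and error bars for the SD over 3 libraries. The Cck-/- points stay between 2.06 and 2.81 FPKM at every age, and the transgenic points rise above them to between 9.66 and 13.4 at week 28.

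The difference of transgenic from Cck-/- libraries in Hrk was 1.01 (SE 0.18) on the log2(FPKM + 1) scale at week 5, 0.98 (SE 0.18) at week 12 and 1.86 (SE 0.18) at week 28. These are folds of 2.01, 1.98 and 3.64 in FPKM + 1, which understates the change of a gene as low as this one. Between weeks 5 and 12 the transgenic difference moved by -0.02 (SE 0.26), and between weeks 12 and 28 it widened by 0.88 (SE 0.26). These values share the libraries by which Hrk was chosen and carry no test. The 3 differences were 0.97, 0.98 and 1.95 when the 3 libraries low in choroid plexus genes were left out. Without the 3 with both Xist and Ddx3y, they were 1.19, 1.00 and 1.74. What could be tested is the contrast of ages within Cck-/- libraries. Hrk changed there by -0.02 (SE 0.18, adjusted p = 0.967, limma) from week 5 to 12 and by -0.03 (SE 0.18, adjusted p = 0.944, limma) from week 12 to 28. The SE pools the spread of all groups, including the transgenic ones, which varied more in Hrk.

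The stretch in front of the first base of Hrk is shown because this gene carries the strongest difference among the members. That of Bbc3 is shown because it alone, of the BH3-only members tested, passed the test for genotype. Both are the bases from 250 to 21 before a start (RefSeq, GRCm38.p6), each on the plus strand. For Hrk this is chr5:118169514-118169743, in front of the gene. For Bbc3 it is chr7:16309333-16309562, in front of the most upstream of 3 starts used here. That stretch lies inside the annotated span of Bbc3, downstream of the gene's outermost start, and overlaps no GENCODE M21 exon. Capitals mark the GC box, GGGCGG or its reverse complement CCGCCC.
Hrk: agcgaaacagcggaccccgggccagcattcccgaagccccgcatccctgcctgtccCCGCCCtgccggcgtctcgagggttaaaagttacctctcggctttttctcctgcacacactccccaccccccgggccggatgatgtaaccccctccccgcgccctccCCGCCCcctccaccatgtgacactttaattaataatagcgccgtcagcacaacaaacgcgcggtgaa
Bbc3: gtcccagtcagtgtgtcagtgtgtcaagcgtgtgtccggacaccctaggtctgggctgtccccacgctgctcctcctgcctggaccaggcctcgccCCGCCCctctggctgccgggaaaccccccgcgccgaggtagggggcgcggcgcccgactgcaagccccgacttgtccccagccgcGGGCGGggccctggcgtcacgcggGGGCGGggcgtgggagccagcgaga
Hrk holds 2 GC boxes, with 63.0% G and C, and Bbc3 holds 3, with 74.3% G and C, against a median of 51.7% over 32851 promoter windows of the same length. The GC box occurs in 29.8% of those windows and in a window of 7 members. The AP-1 motif TGACTCA, bound by dimers with c-Jun, occurs in 4.17% of all windows, and the cAMP response motif TGACGTCA in 1.28%. Neither is in any window of the 10 members on either strand, which says only that these letters are not there. The FOXO motif TTGTTTAC, found in 0.983% of windows, is in a window of Bbc3 at another of its starts. The E2F motif (TTTGGCGC or TTTCGCGC), found in 0.588%, is in a window of Bcl2l1. The motif of the ataxin-1 partner Capicua (TGAATGAA, TCAATGAA, TGAATGGA or TCAATGGA), found in 2.88%, is in the window of Bcl2. CCAAT, found in 32.2%, is in windows of Bcl2l11 and Bbc3.

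Among the other BH3-only genes, Bbc3 (chr7:16308398-16318334, plus strand) rose in transgenic cerebellum at week 28. In Cck-/- libraries it stood at 6.31, 5.94 and 5.98 FPKM at week 5, at 5.11, 6.33 and 4.69 at week 12 and at 5.24, 5.73 and 6.20 at week 28. In transgenic libraries it stood at 5.91, 7.84 and 7.43 FPKM at week 5, at 7.82, 6.31 and 6.76 at week 12 and at 9.87, 8.42 and 7.82 at week 28. The genotypes overlapped at weeks 5 and 12 and were apart at week 28. The log2 difference was 0.18 (SE 0.11, adjusted p = 0.370) at week 5, 0.32 (SE 0.11, adjusted p = 0.208) at week 12 and 0.53 (SE 0.11, adjusted p = 0.00667) at week 28, and averaged over ages it was 0.34 (SE 0.064, adjusted p = 0.00188, limma). The size of the difference was not shown to change with age: from week 12 to 28 it moved by 0.20 (SE 0.16, adjusted p = 0.644). The week 28 difference was 0.59 (adjusted p = 0.00437) when the 3 libraries low in choroid plexus genes were left out and 0.44 (adjusted p = 0.0233) when the 3 with both Xist and Ddx3y were.

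Bcl2l11, the gene of BIM, did not pass the test at any age. At week 28 the Cck-/- libraries stood at 3.22, 2.39 and 2.39 FPKM and the transgenic libraries at 4.28, 3.68 and 3.35, with no overlap between the groups. The log2 difference was 0.38 (SE 0.13, adjusted p = 0.0688, limma), against 0.03 (adjusted p = 0.915) at week 5 and 0.15 (adjusted p = 0.711) at week 12. The week 28 difference stayed uncalled in 23 of 29 alternatives. Its highest adjusted p was 0.269, without the 3 libraries with both Xist and Ddx3y. Single libraries moved it across the threshold. Without Cck-/- week 28 replicate 1 the week 28 difference was 0.49 (adjusted p = 0.0252). It also passed without Cck-/- week 12 replicate 3, transgenic week 12 replicate 1 or transgenic week 28 replicate 3 (adjusted p = 0.0450, 0.0359 and 0.0491). Bid, whose product is cut by caspase-8 and links death receptors to mitochondria, was the least abundant member, at 1.31 to 2.85 FPKM. At week 28 the Cck-/- libraries held 1.99 ± 0.430 FPKM and the transgenic ones 2.54 ± 0.265 (SD, n = 3), a log2 difference of 0.25 (SE 0.11, adjusted p = 0.173, limma). On the opposite strand exons of Bcl2l13 overlap those of Bid, and whether reads were counted by strand is not given in the sources used here, so their reads cannot be told apart.

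Of the survival genes, Bcl2l1 and Bcl2l2 were the most abundant members and both fell in transgenic libraries at week 28. Bcl2l2 (chr14:54883366-54890858, plus strand) stood at 61.1, 63.4 and 58.6 FPKM in Cck-/- and at 51.9, 47.7 and 54.8 in transgenic libraries of that age. All 3 transgenic values lay below all 3 Cck-/- values, and the log2 difference was -0.24 (SE 0.053, adjusted p = 0.00893, limma). Over all ages Bcl2l2 fell by 0.13 (SE 0.031, adjusted p = 0.00794, limma), with -0.05 (adjusted p = 0.665) at week 5 and -0.11 (adjusted p = 0.410) at week 12. The week 28 call was lost without Cck-/- week 28 replicate 2 (adjusted p = 0.0504) and without transgenic week 28 replicate 2 (0.0601). It was lost too with only the compared groups fitted, with the highest adjusted p, 0.115. Without the 3 libraries with both Xist and Ddx3y it was also lost (0.0506), where the difference was as large, at -0.25. Exons of the predicted gene Gm20521 overlap Bcl2l2 on the same strand.

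Bcl2l1, the gene of BCL-XL to which HRK binds (chr2:152758732-152833803, minus strand), stood at 46.7, 55.2 and 54.3 FPKM in Cck-/- and at 42.6, 44.1 and 47.6 in transgenic libraries at week 28. The lowest Cck-/- library lay within the transgenic range. The log2 difference was -0.21 (SE 0.064, adjusted p = 0.0473, limma), and this call was lost in 17 of 30 alternatives. Among them, the adjusted p was 0.190 without Cck-/- week 28 replicate 2, 0.146 without its replicate 3, 0.186 without transgenic week 28 replicate 1 and 0.157 without its replicate 2. It was 0.196 without the 3 libraries with both Xist and Ddx3y, at a difference of -0.18. At weeks 5 and 12 the differences were -0.05 (adjusted p = 0.684 and 0.833).

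Mcl1, whose short-lived product binds BIM and BAK, stood at 38.1, 40.8 and 38.4 FPKM in the Cck-/- libraries of week 5 and at 36.9, 34.0 and 36.8 in the transgenic ones. In the libraries of week 28 the values were 30.5, 29.7 and 30.2 FPKM for Cck-/- and 32.3, 31.4 and 33.3 for transgenic. The transgenic libraries were thus all lower at week 5 and all higher at week 28, and neither difference passed the test (-0.12 with adjusted p = 0.0886 and 0.10 with adjusted p = 0.143, limma, SE 0.040 for both). Bcl2, the founding member, lay between 2.32 and 3.69 FPKM in the 18 libraries, well under the other survival genes, and its genotype differences were 0.01, -0.04 and 0.01 at the 3 ages, with an SE of 0.11 each.

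Of the effectors, Bak1 fell in transgenic libraries at week 5, from 9.09, 8.06 and 7.98 FPKM in Cck-/- to 6.56, 6.92 and 7.18 (log2 difference -0.25, SE 0.052, adjusted p = 0.00984, limma). At week 12 the transgenic libraries were the higher ones, at 6.16, 6.47 and 6.36 FPKM against 5.45, 5.80 and 5.80 (0.13, SE 0.052, adjusted p = 0.296), and the genotypes did not overlap at either age. The change of the difference between the 2 ages was 0.38 (SE 0.074, adjusted p = 0.0296, limma). The week 5 call was lost without Cck-/- week 5 replicate 1 (adjusted p = 0.0503), when the 3 libraries low in choroid plexus genes were dropped (0.263, at a difference of -0.19 that rests on 1 transgenic library of week 5) and when the 3 with both Xist and Ddx3y were (0.0658, at -0.22). The change between ages was lost in 10 of 30 alternatives, with values of 0.33 and 0.34 and adjusted p = 0.315 and 0.216 without these 2 sets of libraries. Leaving out any of 7 single libraries of the 4 groups ended it too, with the highest adjusted p, 0.0916, without transgenic week 12 replicate 2. Of 10 oligodendrocyte genes, all had a lower transgenic mean at week 5 (median log2 difference -0.41). Of them 4 were called lower, against 4.37% of all tested genes. None was called at week 12 (median 0.14). All 10 moved up between the 2 ages relative to Cck-/- libraries (median 0.59, 3 called, against 0.667% of all tested genes in either direction). Their part in the Bak1 values was not tested. Ggnbp1, whose exons overlap Bak1 on the opposite strand, averaged 1.67 ± 0.0317 FPKM in the Cck-/- and 1.64 ± 0.0496 in the transgenic libraries of week 5 (SD, n = 3).

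Bax, the more abundant effector, averaged 44.0 ± 2.56 FPKM in the Cck-/- and 41.1 ± 1.99 in the transgenic libraries of week 5, and 33.7 ± 2.94 and 31.5 ± 2.74 in those of week 28 (SD, n = 3). Its genotype differences were -0.10, 0.01 and -0.10 at the 3 ages (SE 0.077, adjusted p = 0.510, 0.983 and 0.472, limma), and the genotypes overlapped at each. Exons of the predicted gene Gm45808 overlap Bax on the same strand.

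**Figure D2:**
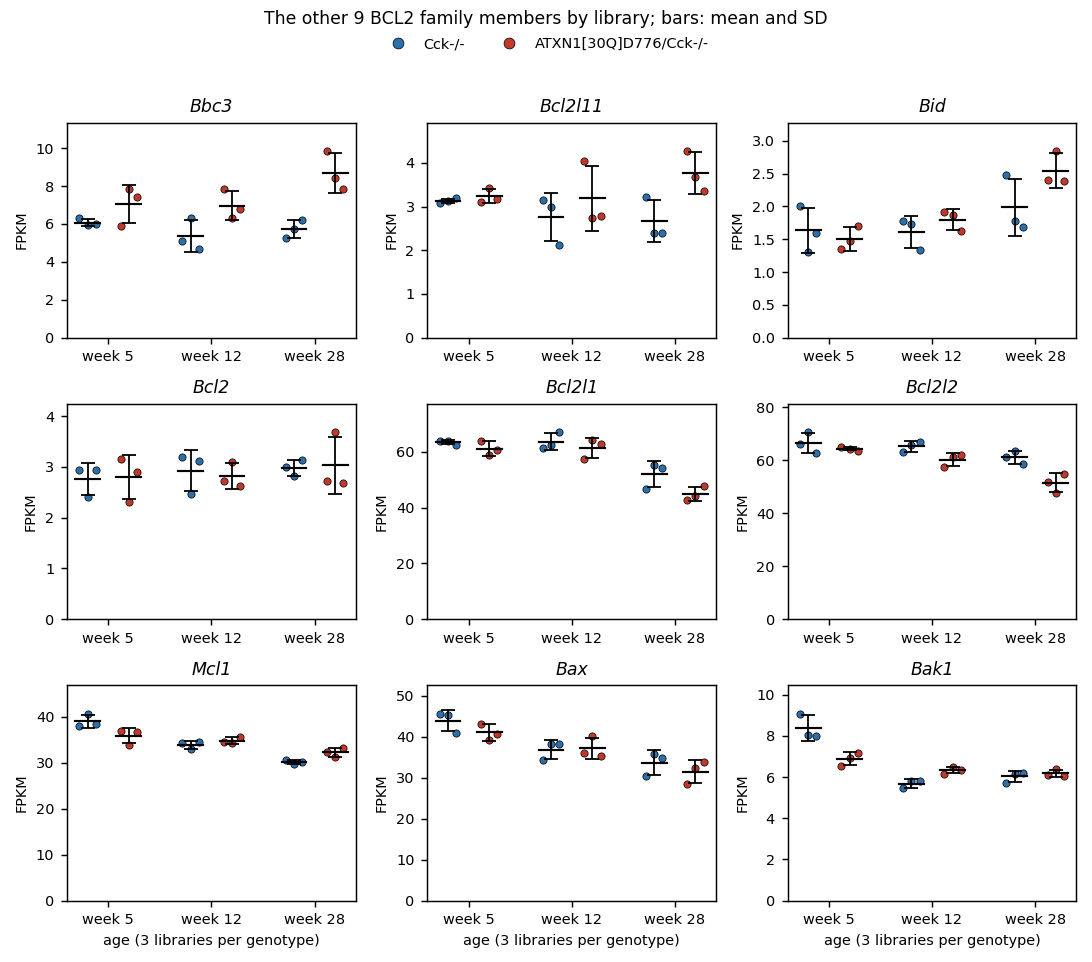
FPKM (vertical axes, each from 0) of the 9 members other than Hrk in each library by age and genotype, with the mean and SD over 3 libraries. The transgenic points of Bbc3 reach 7.82 to 9.87 FPKM at week 28 and those of Bcl2l2 drop to 47.7 to 54.8, while Bcl2 stays between 2.32 and 3.69 in all 18 libraries.

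Counted over the 9 members other than Hrk, 1 (Bak1, lower) was called at week 5, where 7.67% of all tested genes were called (3.3% higher and 4.37% lower). None was called at week 12, where 1.36% of all tested genes were. An unadjusted p under 0.05 was found there for 3 members and for 1623 of all 13487 tested genes. At week 28, 3 were called (Bbc3 higher, Bcl2l2 and Bcl2l1 lower), where 10.7% of all tested genes were (4.54% higher and 6.13% lower). Averaged over ages 2 were called (Bbc3 higher and Bcl2l2 lower), where 14.8% were (6.82% higher and 8% lower). The median log2 difference of the 9 was -0.05, 0.04 and 0.03 at the 3 ages, against 0.0003, 0.0023 and 0.0046 over all tested genes, with members on both sides of 0 at each age. Over the same 9, the genotypes did not overlap at week 5 in 0 with the transgenic libraries higher, against 15.1% of all tested genes, and in 2 with them lower (Mcl1 and Bak1), against 16%. At week 12 these were 1 member (Bak1), against 7.95%, and 1 member (Bcl2l2), against 8.74%. At week 28 they were 3 members higher (Bbc3, Bcl2l11 and Mcl1), against 13.2%, and 1 lower (Bcl2l2), against 12.9%. No gene of the 13487 was called by limma for a change of the genotype difference between weeks 12 and 28 (0%, with 1365 at an unadjusted p under 0.05). Only 0.667% of all tested genes were called between weeks 5 and 12, Bak1 among them.

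**Figure D3:**
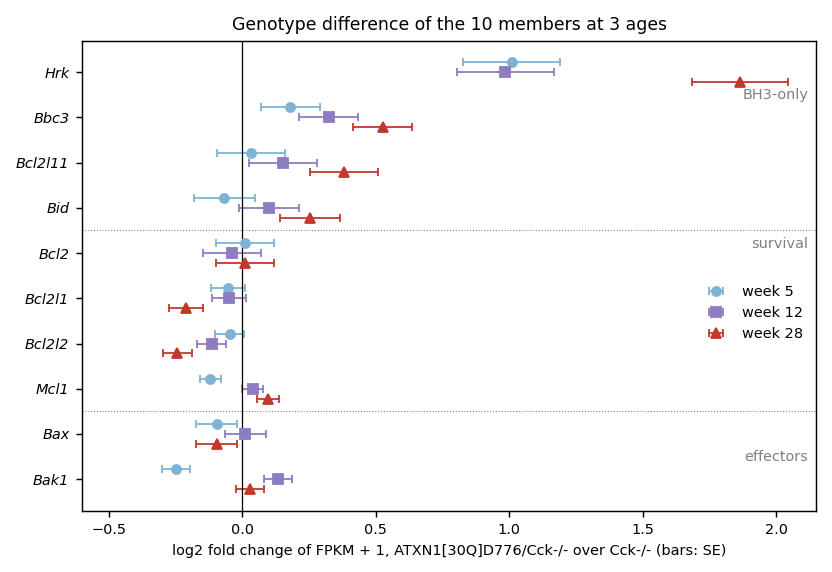
Log2 fold change of FPKM + 1 (horizontal axis), transgenic over Cck-/-, for the 10 members ordered by role, with 1 marker per age and bars for the SE. Hrk stands at 1.01, 0.98 and 1.86, and the other 9 members lie between -0.25 and 0.53 at all ages.

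The members can also be set against each other by role, as sums of FPKM. The summed level of the 4 BH3-only genes in Cck-/- libraries was 13.3 ± 0.359, 12.1 ± 1.82 and 12.7 ± 0.802 FPKM at the 3 ages (SD, n = 3). In transgenic libraries it was 17.9 ± 3.03, 17.8 ± 3.17 and 26.2 ± 3.42 FPKM. Hrk made up 18.3%, 19.8% and 18.3% of this sum in Cck-/- and 33.4%, 32.4% and 42.5% in transgenic libraries. The mean sum of the 4 survival genes was lowest at week 28 in both genotypes, at 172, 166 and 146 FPKM by age in Cck-/- and 164, 159 and 132 in transgenic libraries. For each FPKM of Hrk there were 26.2, 27.0 and 22.7 FPKM of Bcl2l1 in Cck-/- and 10.8, 11.2 and 4.10 in transgenic libraries. These sums and ratios contain Hrk and are a description, and they concern RNA and not protein.

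With age, the called changes in Cck-/- libraries were in Bak1, Mcl1, Bax and Bcl2l1. The BH3-only genes and Bcl2 had larger SEs, from 0.11 to 0.18, than these genes, from 0.040 to 0.077. The calls therefore do not compare the roles. In Cck-/- libraries from week 5 to 12, 3 of 10 members fell and none rose, where 11.8% of all tested genes were called (5.29% higher and 6.53% lower). They were Bak1 (-0.49, SE 0.052, adjusted p = 3.98e-05), Mcl1 (-0.20, SE 0.040, adjusted p = 0.00502) and Bax (-0.25, SE 0.077, adjusted p = 0.0467, limma). The call of Bax was lost in 15 of 30 alternatives, with the highest adjusted p, 0.183, without Cck-/- week 12 replicate 1. From week 12 to 28, 2 of 10 fell, where 9.65% of all tested genes were called (4.03% higher and 5.62% lower). They were Bcl2l1 (-0.29, SE 0.064, adjusted p = 0.0128) and Mcl1 (-0.16, SE 0.040, adjusted p = 0.0211, limma). Bcl2l1 lost its call without Cck-/- week 12 replicate 3 (adjusted p = 0.0603). Mcl1 lost it without any of 4 single libraries of these groups (Cck-/- week 12 replicates 1 and 3 and week 28 replicates 2 and 3, highest adjusted p = 0.0776). With only the compared groups fitted, both calls were lost (adjusted p = 0.107 for Bcl2l1 and 0.0980 for Mcl1, limma). Cell type genes changed over the same ages. From week 5 to 12 in Cck-/- libraries all 10 oligodendrocyte genes were called lower (median -0.88), as were 3 of 10 granule neuron genes. From week 12 to 28, 2 of the 10 granule neuron genes were called lower and all 10 had a lower mean (median -0.27). The part of these genes in the age changes was not tested.

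In transgenic libraries none of the 9 members other than Hrk was called from week 5 to 12, where 1.19% of all tested genes were. No member had an unadjusted p under 0.05, against 1821 of all 13487 tested genes. From week 12 to 28, 4 of the 9 were called, where 23.8% of all tested genes were (10.2% higher and 13.7% lower). Bcl2l1 fell from 57.3, 64.1 and 62.8 FPKM to 42.6, 44.1 and 47.6 (log2 change -0.45, SE 0.064, adjusted p = 0.000488, limma), a call kept in all 30 alternatives. Bcl2l2 fell by 0.22 (SE 0.053, adjusted p = 0.00882), Bax fell by 0.23 (SE 0.077, adjusted p = 0.0376) and Bid rose by 0.34 (SE 0.11, adjusted p = 0.0422, limma). Without the 3 libraries with both Xist and Ddx3y these 3 calls were lost (adjusted p = 0.0915, 0.413 and 0.139), with log2 changes of -0.22 for Bcl2l2, -0.11 for Bax and 0.39 for Bid. Bax also lost its call without transgenic week 12 replicate 2 or 3 or transgenic week 28 replicate 1 or 2 (highest adjusted p = 0.173, log2 change -0.17, without week 28 replicate 1). Bid lost its call in 14 of 29 alternatives, with the highest adjusted p, 0.158, without transgenic week 28 replicate 2. Over the same ages Bbc3 changed by 0.28 (SE 0.11, adjusted p = 0.0738) and Hrk by 0.85 (SE 0.18, not tested). Over these ages 3 of 10 granule neuron genes and 14 of 15 Purkinje cell genes were called lower and 9 of 10 microglia genes higher. Whether ageing differed between the genotypes is the change of the genotype difference given above, for which no member passed between weeks 12 and 28.

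Downstream of the family, 20 genes of the apoptosome and the caspases were tested (21 listed). Of these, 1 was lower at week 5, none was called at week 12, and 1 was higher and 2 were lower at week 28. At these ages 7.67%, 1.36% and 10.7% of all tested genes were called. At week 12, 2 of the 20 had an unadjusted p under 0.05 (limma), as did 1623 of all 13487 tested genes. The median log2 difference of the 20 at week 28 was -0.0042. At week 5 the called gene was Diablo, whose product relieves caspases of their inhibitors (-0.27, SE 0.066, adjusted p = 0.0203, limma). This call was lost in 5 of 30 alternatives, with the highest adjusted p, 0.0786, and a difference of -0.19 without transgenic week 5 replicate 3. Without the 3 libraries low in choroid plexus genes, which leaves that replicate alone, the difference was -0.43 (adjusted p = 0.0105). It was also lost without Cck-/- week 5 replicate 1 or 2 or transgenic week 5 replicate 2. At week 28 Casp2, an initiator caspase, rose by 0.21 (SE 0.052, adjusted p = 0.0168), Casp9, the initiator of the apoptosome, fell by 0.24 (SE 0.045, adjusted p = 0.00318) and Cycs, the gene of cytochrome c, fell by 0.29 (SE 0.073, adjusted p = 0.0197, limma). Casp9 stood at 11.7, 11.5 and 11.6 FPKM in Cck-/- and at 9.68, 9.09 and 10.2 in transgenic libraries of that age, with no overlap. With only the compared groups fitted, the calls of Casp9, Casp2 and Cycs were lost (adjusted p = 0.0813, 0.120 and 0.125, limma). The calls of Casp2 and Cycs were also lost without the 3 libraries with both Xist and Ddx3y (adjusted p = 0.115 and 0.0846, at differences of 0.17 and -0.25). Casp2 also lost its call without Cck-/- week 28 replicate 2 or transgenic week 28 replicate 1 (highest adjusted p = 0.0950), and Cycs without Cck-/- week 28 replicate 2 or transgenic week 28 replicate 1 or 2 (highest adjusted p = 0.110). None of the 9 tested death receptor genes (12 listed) was called for genotype at any age, and their median log2 difference at week 28 was 0.02.

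Of 12 tested genes of the wider BCL2 family (17 listed), none was called at weeks 5 and 12. At week 28, 1 was lower, where 10.7% of all tested genes were called, and the median log2 difference of the 12 was 0.02. The lower gene was Bok, a further effector of the BAX type, at 14.3, 11.3 and 11.2 FPKM in Cck-/- and 5.62, 6.21 and 6.92 in transgenic libraries (-0.87, SE 0.12, adjusted p = 0.000298, limma). Averaged over ages 1 of the 12 was higher and 2 were lower, where 14.8% of all tested genes were called. Bok fell by 0.49 (adjusted p = 0.000224), and Becn1, an autophagy gene whose product binds BCL2, fell by 0.10 (adjusted p = 0.0411, limma), a call lost in 15 of 30 alternatives. Pmaip1, the gene of the BH3-only protein NOXA, stood 0.29 higher (SE 0.079), from levels under 1 FPKM in Cck-/- libraries. Only transgenic libraries reached 1 FPKM for this gene, so it passed the filter through the group where it is high. Its call, the 1 counted as higher, is therefore not read as a test.

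Among 23 tested regulators of the JNK, p53 and FOXO pathways (24 listed), 1 was lower at week 5 and none was called at week 12. At week 28, 2 were higher, with a median log2 difference of 0.01. The shares of all tested genes called at the 3 ages were 7.67%, 1.36% and 10.7%. Jun, the gene of c-Jun, stood at 18.3, 17.9 and 21.5 FPKM in Cck-/- and at 35.5, 26.2 and 30.3 in transgenic libraries at week 28 (0.64, SE 0.11, adjusted p = 0.00148, limma). Atf3, a stress-induced partner of c-Jun, stood at 0.989, 0.775 and 0.857 FPKM in Cck-/- and at 1.74, 1.67 and 1.34 in transgenic libraries (0.46, SE 0.12, adjusted p = 0.0256, limma). Both were apart between the genotypes at week 28. The call of Jun was kept in all 30 alternatives. That of Atf3 was lost without the 3 libraries with both Xist and Ddx3y (adjusted p = 0.137, at a difference of 0.42) and without any of Cck-/- week 28 replicates 2 and 3 or transgenic week 28 replicates 1 and 2 (highest adjusted p = 0.110). At week 5 the lower gene was E2f1, a cell cycle factor (-0.54, SE 0.10, adjusted p = 0.00447, limma), whose call was lost without the 3 libraries low in choroid plexus genes (adjusted p = 0.0844), where the difference was as large, at -0.57, with 1 transgenic library of week 5.

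**Figure D4:**
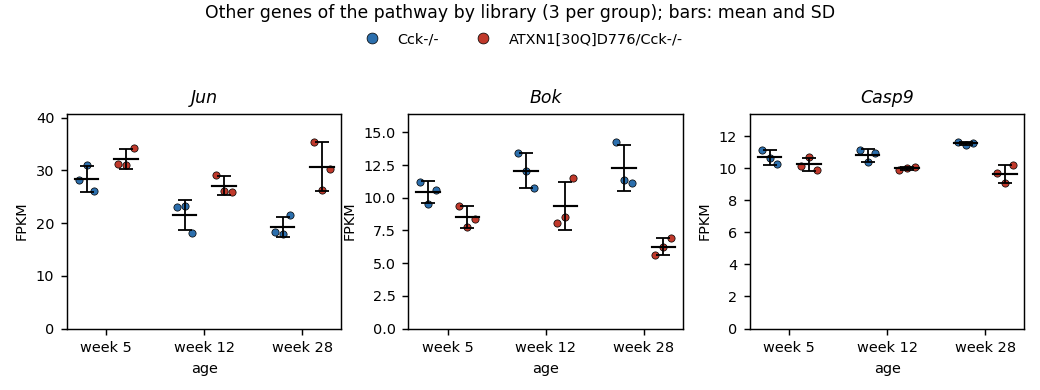
FPKM (vertical axes, each from 0) of Jun, Bok and Casp9 in each library by age and genotype, with the mean and SD over 3 libraries. At week 28 the transgenic points of Jun (26.2 to 35.5) lie above all Cck-/- points of that age, and those of Bok (5.62 to 6.92) lie below.

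Cell type markers moved with these differences. For the counts below, 7.67%, 1.36% and 10.7% of all tested genes were called for genotype at weeks 5, 12 and 28. The marker lists were chosen with earlier results of these data known, so their counts are a description and not an independent test. The mean log2(FPKM + 1) of 15 Purkinje cell genes was 7.60, 7.70 and 7.61 in Cck-/- and 7.19, 7.13 and 6.27 in transgenic libraries at the 3 ages, and 6, 7 and 15 of the 15 were called lower. No marker of this list was at 0. In bulk tissue, fewer cells of a type and less RNA per cell cannot be told apart. At week 28 the transgenic libraries ran from 5.91 to 6.73 in this mean and the Cck-/- libraries from 7.58 to 7.64. The 10 microglia genes had a mean of 3.11, 3.23 and 3.64 in Cck-/- and 3.24, 3.63 and 4.26 in transgenic libraries, with 6 of 10 called higher at week 28 and none at weeks 5 and 12. The ranges at week 28 were 3.43 to 3.94 and 4.01 to 4.54. None of 10 granule neuron genes was called between the genotypes at any age. Of 10 oligodendrocyte genes, 4 were called lower at week 5 and 3 higher at week 28. Of 9 inhibitory interneuron genes, 5 were called higher at week 5 and 2 lower at week 28. Of 10 genes of astrocytes and Bergmann glia, 1 was called lower at week 5, and 3 higher and 3 lower at week 28. No choroid plexus, blood or meninges gene was called for genotype at any age by limma, and 1 of 3 midbrain and forebrain genes was lower at each age. At an unadjusted p under 0.05 these counts at week 5 were 4 of 10 choroid plexus, 2 of 5 blood and 1 of 9 meninges genes, and at weeks 12 and 28 none. Over all 13487 tested genes, 3010, 1623 and 3483 had such a p at the 3 ages. The part of these markers in the member results was not tested.

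**Figure D5:**
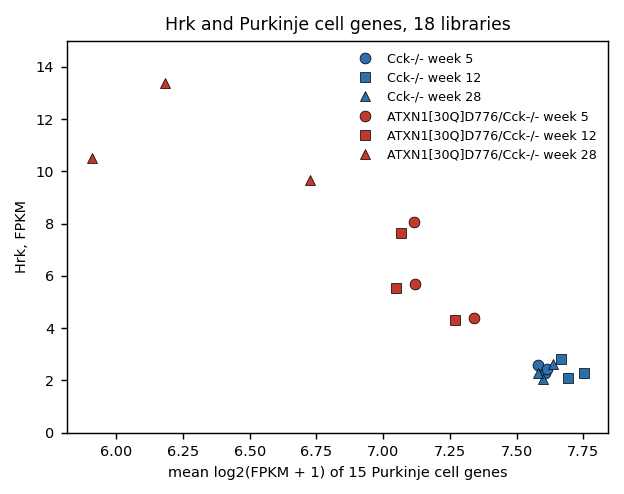
Hrk in FPKM (vertical axis) against the mean log2(FPKM + 1) of 15 Purkinje cell genes (horizontal axis), 1 point per library, with colour for genotype and shape for age. The 9 Cck-/- libraries sit together at 2.06 to 2.81 FPKM, and the 3 transgenic libraries of week 28, lowest in Purkinje cell genes, are the highest in Hrk.

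Over the 18 libraries the genes whose log2 level was among the 5 most like that of Hrk included Lhfpl2 (Pearson r = 0.92), Bbc3 (0.91), Eif2ak3, the gene of the stress kinase PERK (0.90) and Pigh (0.90). The most opposite were Ap1ar (-0.98), Ptprr, the gene of a tyrosine phosphatase (-0.98), and Fam107b (-0.98), the last of which is also on the Purkinje cell list. These are descriptions over libraries that share genotype and age, so the points are not independent. Within the 9 transgenic libraries r with Hrk was 0.87 for Lhfpl2, 0.92 for Bbc3 and -0.92 for Ap1ar. Within the 9 Cck-/- libraries, where Hrk varied little, it was 0.29, 0.39 and -0.65. Among the members, r over all 18 libraries was 0.72 for Bcl2l11, 0.50 for Bid, -0.58 for Bcl2l1 and -0.73 for Bcl2l2, and it was between -0.41 and -0.06 for Bax, Mcl1, Bak1 and Bcl2.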

How the data were processed

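The 18 libraries were made with the Illumina TruSeq kit from cerebellar total RNA, per the labels' protocols. Reads were aligned with TopHat2 2.0.11 and quantified with Cufflinks 2.2.1 on mm10, per the submitters' processing notes. The deposited values are FPKM per gene symbol, scaled across libraries by the authors with Cuffnorm, per the file headers. The sources used here do not give the annotation, scaling method or strand handling. Low values show no whole-read steps (18 of 801 low genes have 1 ratio in common, tolerance 0.1%), so depth could not be recovered.

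The test, on log2(FPKM + 1), was limma 3.58.1 (R 4.3.3) over the 13487 genes at 1 FPKM or more in at least 3 libraries. It fitted 1 mean per group with a mean-variance trend, leaving 12 residual degrees of freedom. P-values are two-sided and adjusted by Benjamini and Hochberg over all tested genes within each of 10 comparisons. A call is an adjusted p under 0.05. The members and lists were chosen with earlier results of these data known. Counts of calls within the lists are therefore a description. Hrk was chosen by its genotype difference, so its genotype values, interactions and transgenic age changes carry no p, since they share libraries. Of each wider list, up to 4 called genes with the smallest p in each comparison are named, and some are left out. Results for 2 genes are not reported here, and list counts leave them out. As alternatives, the pseudocount, filter, scaling, trend and library weights were varied, replicate blocks were added, single libraries were dropped, and each comparison was fitted on its own groups. Fits without 2 sets of 3 libraries were added after seeing the data. The fit was also run on simulated data for the week 28 genotype comparison. There it recovered 81% of log2 changes of 0.5 and 96.9% of log2 changes of 1. It called 4 of 13143 genes simulated without a change. Whether these rates hold for the 18 libraries was not tested. Promoters and positions came from RefSeq (GRCm38.p6, the assembly of mm10) and exon overlaps from GENCODE M21. Tables and figures used Python 3.11.15, pandas 2.3.3, numpy 2.4.6 and matplotlib 3.10.9, and files were read in R with the package data.table (version 1.17.8).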

Additional observations from a re-analysis of the deposited data

Results flagged for a closer look

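Bak1, which encodes the effector BAK, differed between ages in its genotype difference. The transgenic libraries were lower at week 5 (log2 difference -0.248) and higher at week 12 (0.134), with all 3 libraries apart in opposite directions, and the change of 0.382 between the ages passed the test of the interaction (adjusted p = 0.0296, limma). The level of Cck was 98.1 FPKM in transgenic week 5 libraries and 14.8 in those of week 12. Choroid plexus genes were low in transgenic week 5 replicates 1 and 2, and the interaction was 0.33 (adjusted p = 0.315) without the 3 libraries low in these genes. Of 10 oligodendrocyte genes, all were lower in transgenic libraries at week 5 (median log2 difference -0.41, 4 called, against 7.67% of all tested genes). All had a positive interaction (median 0.59, 3 called, against 0.667%). The part of any of these in the change was not tested.

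Mcl1 was lower in all 3 transgenic than in all 3 Cck-/- libraries at week 5 (log2 difference -0.119) and higher in all 3 at week 28 (0.0966). The change between these ages was not tested.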

How the results depend on the processing

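No called value of a member changed direction in any alternative that gave a value, and Bbc3 kept its calls at week 28 and averaged over ages in all 30. Median-ratio and quantile scaling moved the median of all genes by under 0.1 (log2). Depth is unknown. Members near 2 FPKM, such as Bid, Bcl2 and, in Cck-/- libraries, Hrk, may thus be limited by counting error that FPKM does not show. Where counts of calls moved, the cause was not tested, except that fits of fewer libraries have fewer degrees of freedom.

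Without a filter, and again with quantile normalization, 2 members in place of 4 were called from week 12 to 28 in transgenic libraries. With library weights, genes called for genotype numbered 3112 at week 5, 323 at week 12, 5835 at week 28 and 4014 averaged over ages (1035, 183, 1439 and 1999 with equal weights), and members called 2 at week 5, 7 at week 28 and 4 averaged. Interactions then numbered 367 genes between weeks 5 and 12 (90 with equal weights) and 2344 genes with 2 members between weeks 12 and 28 (0 and 0). Age changes numbered 3907 (1595) and 4244 (1301) genes in Cck-/- libraries and 5128 (3216) genes with 7 members from week 12 to 28 in transgenic libraries.

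With only the compared groups, members called for genotype were 0 at week 5 and 1 at week 28, the interaction of weeks 5 and 12 gave 0 members, and age changes from week 12 to 28 gave 0 members in Cck-/- and 1 in transgenic libraries. Genes called were then 63 for genotype at week 12 and 337 at week 28, 140 for weeks 12 to 28 in Cck-/-, and 28 (161) and 1368 for the transgenic age changes.

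Without the 3 libraries low in choroid plexus genes, 305 genes and 0 members were called at week 5, 27 genes and 0 members for the interaction of weeks 5 and 12, 102 genes for that of weeks 12 and 28, and 44 genes from week 5 to 12 in transgenic libraries. Without the 3 libraries with both Xist and Ddx3y, genotype called 664 genes and 0 members at week 5, 63 genes at week 12, 663 genes and 1 member at week 28 and 1293 genes averaged. The interaction of weeks 5 and 12 called 25 genes and 0 members, and transgenic libraries 42 genes from week 5 to 12 and 978 genes and 1 member from week 12 to 28.

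Leaving out 1 library at a time, genes called for genotype ran from 450 to 1337 at week 5, from 59 to 240 at week 12, from 616 to 1975 at week 28 and from 1590 to 2559 averaged, and members called from 0 to 1, 0 to 0, 1 to 5 and 2 to 4. Interactions ran from 40 to 134 genes and 0 to 1 members, and from 0 to 149 genes with 0 members. Age changes in Cck-/- libraries ran from 955 to 1999 genes and 2 to 3 members, and from 635 to 1342 genes and 0 to 2 members. In transgenic libraries they ran from 68 to 249 genes with 0 members, and from 1749 to 3896 genes with 2 to 5 members.

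Replicate numbers did not pair the libraries: deviations of same-numbered libraries correlated between -0.388 and 0.435, and in 1 of 15 pairs of groups every correlation was over 0.1. Of 18 libraries, 3 correlated best with a library of their own number. With the replicate number as a block, genes called for genotype numbered 1007, 192 and 1411 at the 3 ages and 1943 averaged, and Bcl2l11 then passed at week 28 (adjusted p = 0.0324) and averaged (0.0486).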

Other observations

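Ageing in Cck-/- cerebellum also moved regulators of the pathway, among them E2f1, which was also called for genotype at week 5. From week 5 to 12, Cdkn1a, the gene of the cell cycle inhibitor p21 and a classical p53 target, fell by 0.99 (SE 0.14, adjusted p = 0.000470, limma), and E2f1 fell by 0.79 (SE 0.10, adjusted p = 0.000197, limma). Cdkn1a fell again from week 12 to 28, by 0.64 (SE 0.14, adjusted p = 0.0134, limma), a call lost without Cck-/- week 28 replicate 3 (adjusted p = 0.0541). Of the 23 regulators tested, 1 rose and 4 fell from week 5 to 12, where 5.29% of all tested genes were called higher and 6.53% lower. From week 12 to 28, 1 rose and 3 fell, where 4.03% were called higher and 5.62% lower. In transgenic libraries from week 12 to 28, Dffb, the gene of the caspase-activated nuclease, rose by 0.45 (SE 0.089, adjusted p = 0.00286), and Foxo3, a transcription factor known to act on Bbc3 and Bcl2l11, fell by 0.39 (SE 0.088, adjusted p = 0.00632, limma). Both changed in the same direction over these ages in Cck-/- libraries (0.31, adjusted p = 0.0398, and -0.31, adjusted p = 0.0417, limma), calls that were lost in 12 of 29 and 14 of 30 alternatives.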
